A study of Homo sapiens with 18 samples.

Results

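The 10 genes described here act in the uptake and conversion of retinol and in the synthesis and breakdown of retinoic acid: STRA6, RETSAT, RDH10, RDH11, DHRS3, ALDH1A1, ALDH1A2, ALDH1A3, CYP26A1 and CYP26B1. They were chosen by name, and each matched 1 of the 58051 gene identifiers in the deposited tables. Their transcripts were measured by RNA sequencing in the human large-cell lung cancer line NCI-H460. The groups were a pair of populations labelled as resistant to all-trans retinoic acid (ATRA) plus decitabine, here resistant 1 and resistant 2, and the parental line. Each population was given 2 µM ATRA with 50 µM decitabine or the solvent (DMSO, 0.7% v/v) 24 h after seeding and was harvested at 72 h, so that the drugs were present for 48 h. There were 3 biological replicates in each of the 6 groups and 18 libraries in all. The labels give the genotype of every group as wild type, and do not say how the resistant populations were derived or whether they are clones. The drugs were given together, so the effects of ATRA and of decitabine cannot be told apart.

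Cells take up retinol through the membrane receptor STRA6, and retinol dehydrogenases such as RDH10 turn it into retinaldehyde. The reductases DHRS3 and RDH11 run that step backwards. RETSAT saturates a double bond of retinol and so diverts it to dihydroretinol. The retinaldehyde dehydrogenases ALDH1A1, ALDH1A2 and ALDH1A3 then make retinoic acid, the ligand of the nuclear retinoic acid receptors, and the cytochromes P450 CYP26A1 and CYP26B1 hydroxylate it for removal. In many cell types retinoic acid raises the transcripts of its own breakdown genes and of DHRS3, which forms a feedback loop. Decitabine lowers DNA methylation once it enters DNA during replication.

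DMSO libraries held 116.9 to 140.9 M recovered reads each. Treated libraries held 110.9 to 177.1 M, counted over restored genes. The values of the treated table have lost their decimal points. They were restored as whole reads, and a gene was used there where its restored values had a posterior probability of at least 99%. This held for 7 of the 10 genes. CYP26A1, CYP26B1 and STRA6 stayed ambiguous, and their treated values are given as every reading with a posterior of at least 0.5%. Normalized counts are compared within a treatment, and CPM, reads scaled to a common library size, across treatments. Levels of different genes are compared only as CPM per kilobase of exon. The summed level of 6 epithelial markers with DMSO was 305247 to 444488 normalized counts in resistant 1, 135830 to 204767 in resistant 2 and 223686 to 270911 in parental cells. E-cadherin (CDH1) averaged under 10 normalized counts in all 3 DMSO groups, and EPCAM did so in both resistant populations. Summed over 6 markers each with DMSO, fibroblast genes reached 482 to 548 normalized counts in resistant 1, 3483 to 4481 in resistant 2 and 8079 to 10045 in parental cells. Endothelial genes reached 327 to 429 in resistant 1, 142 to 267 in resistant 2 and 66.1 to 90.9 in parental cells. Immune genes reached 110 to 185 in resistant 1, 132 to 214 in resistant 2 and 183 to 404 in parental cells. With DMSO, 1 of the 6 immune markers was at 0 in all libraries of resistant 2 and 1 in those of parental cells. Of the 6 endothelial markers, 1 was at 0 in resistant 1, 1 in resistant 2 and 2 in parental cells. The part of these markers in the results below was not tested. In such bulk samples, fewer cells expressing a gene and less RNA per cell cannot be told apart.

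Retinoic acid receptors bind direct repeats of a half-site such as AGTTCA or AGGTCA, and the repeat with a spacer of 5 bases, called DR5, is the classical element. It was searched on both strands of 35116 RefSeq promoter windows (GRCh38.p14), each running from 250 bases before to 50 bases after a transcription start. A DR5 occurred in 0.0883% of all windows, and in 1 of the 17 windows of the 9 members that matched this table. That window belongs to CYP26A1 and is shown whole because it is the only member window with a DR5. It lies at chr10:93073643-93073942 on the plus strand, with the DR5 in capitals as it reads on the gene's strand.

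CYP26A1: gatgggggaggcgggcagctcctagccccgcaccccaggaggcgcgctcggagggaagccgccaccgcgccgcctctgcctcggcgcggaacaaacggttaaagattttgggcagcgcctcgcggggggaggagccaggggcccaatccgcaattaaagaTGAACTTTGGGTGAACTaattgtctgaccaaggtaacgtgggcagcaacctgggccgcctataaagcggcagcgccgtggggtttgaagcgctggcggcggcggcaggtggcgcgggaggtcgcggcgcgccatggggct

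The repeat lies 90 to 74 bases before the start and runs on the opposite strand, where it overlaps both AGTTCA half-sites of the window. It is set beside the DR5 in the window of RARB, the retinoic acid receptor beta gene (chromosome 3, 25428210 to 25428226), each read 5′ to 3′ along the repeat.

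CYP26A1 element: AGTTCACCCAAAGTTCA
RARB element: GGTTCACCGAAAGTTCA

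Single half-sites were common, with AGTTCA in 10.4% and AGGTCA in 13.8% of all windows. One AGGTCA was found in a window of DHRS3 and 3 in windows of STRA6, and 1 AGTTCA in a window of ALDH1A2. A match of letters is a description and does not show binding.

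**Figure D1:**
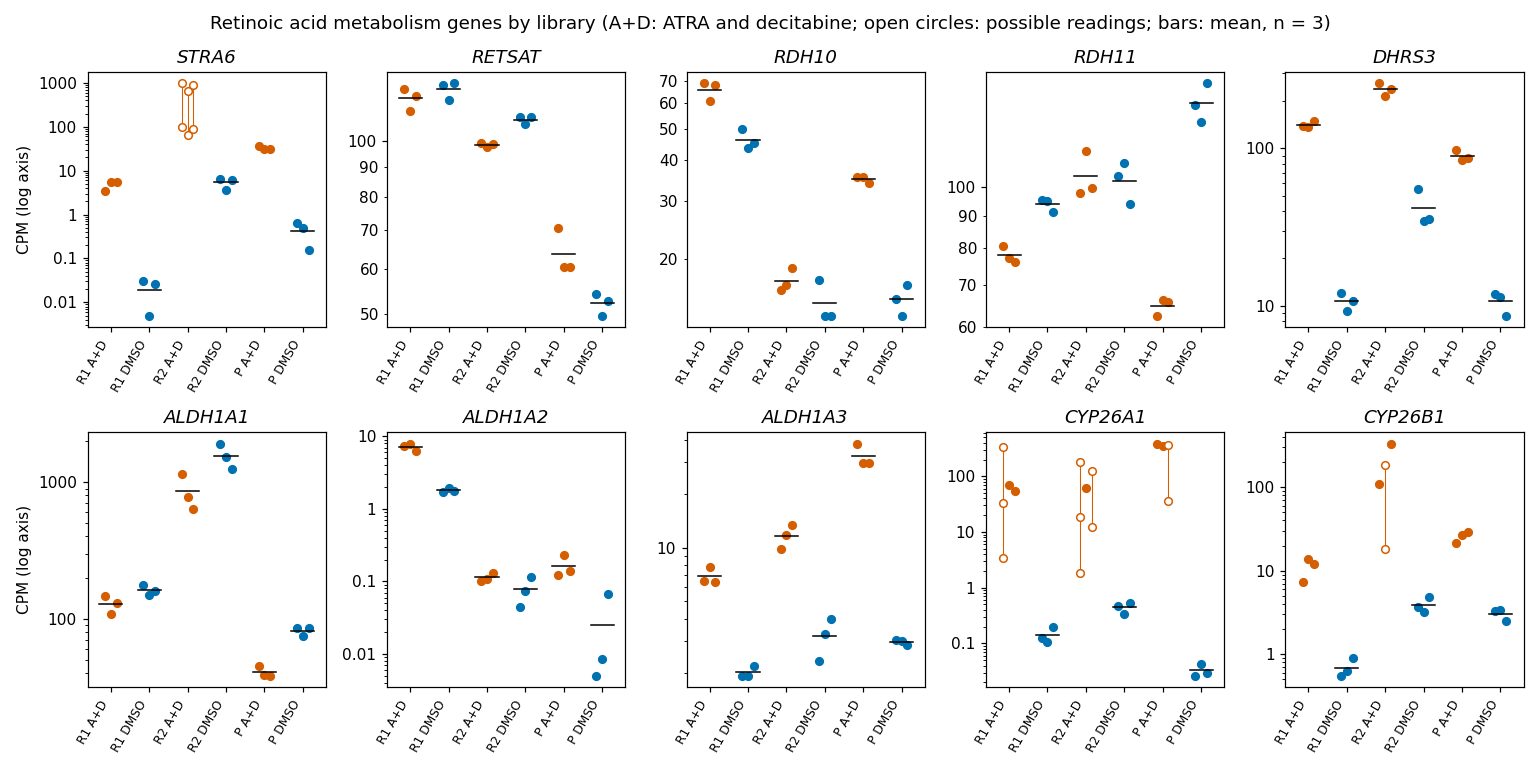
CPM (log axis) of each gene in every library, by population (R1, resistant 1; R2, resistant 2; P, parental) with ATRA and decitabine (A+D, orange) or DMSO (blue). Horizontal bars mark the mean of 3 libraries, open circles joined by a line are the possible readings of 1 library, and a library without reads is drawn at the bottom of its panel. DHRS3 and ALDH1A3 stood higher with the drugs in all 3 populations, and ALDH1A1 was highest in resistant 2 with either treatment.

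Without the drugs, the populations held different sets of these genes: resistant 1 had more ALDH1A2, RDH10, RETSAT, ALDH1A1 and CYP26A1 and less STRA6, CYP26B1, ALDH1A3 and RDH11, whereas resistant 2 had more ALDH1A1, DHRS3, STRA6, CYP26A1, RETSAT and ALDH1A2 and less RDH11. All 10 genes passed the expression filter (10 normalized counts or more in 3 or more of the 9 DMSO libraries). In resistant 1, 5 of the 10 rose and 4 fell (limma on log2(normalized count + 1), Benjamini-Hochberg adjusted p under 0.05), where 29.3% of 21643 tested genes rose and 26.6% fell (55.9% called). In resistant 2, 6 rose and 1 fell, where 32.1% of all genes rose and 29.8% fell (61.9% called). The call of ALDH1A2 in resistant 2 rested on 25 reads, against 8 in parental cells, and 7 of 19 alternative fits lost it. That of ALDH1A3 in resistant 1 was lost in 4 of 19. With most genes called in each comparison, the number of members called is not a result about them, and the sizes below carry the description. The median log2 fold change of the 10 genes was 0.52 in resistant 1 and 1.48 in resistant 2, beside 0.006 and 0.019 over all tested genes. Both comparisons share the 3 parental libraries, so they are not independent. Between the resistant populations, resistant 1 had 2 of the 10 genes higher and 6 lower than resistant 2, where 27.4% of all genes were higher and 26.0% lower (53.4% called).

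With ATRA and decitabine, the 7 restored genes were tested among 20802. In resistant 1, 6 rose and 1 fell relative to treated parental cells, where 34.3% of all genes rose and 32.2% fell (66.6% called). In resistant 2, 4 rose and 2 fell, where 37.4% rose and 34.4% fell (71.8% called). Between the treated resistant populations 3 were higher and 4 lower in resistant 1, where 29.1% of all genes were higher and 28.7% lower (57.8% called). RDH11 fell in both resistant populations with DMSO and rose in both with the drugs, each relative to parental cells. RDH10 in resistant 2 fell with the drugs, while its log2 fold change with DMSO was -0.0072 (adjusted p = 0.97).

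**Figure D2:**
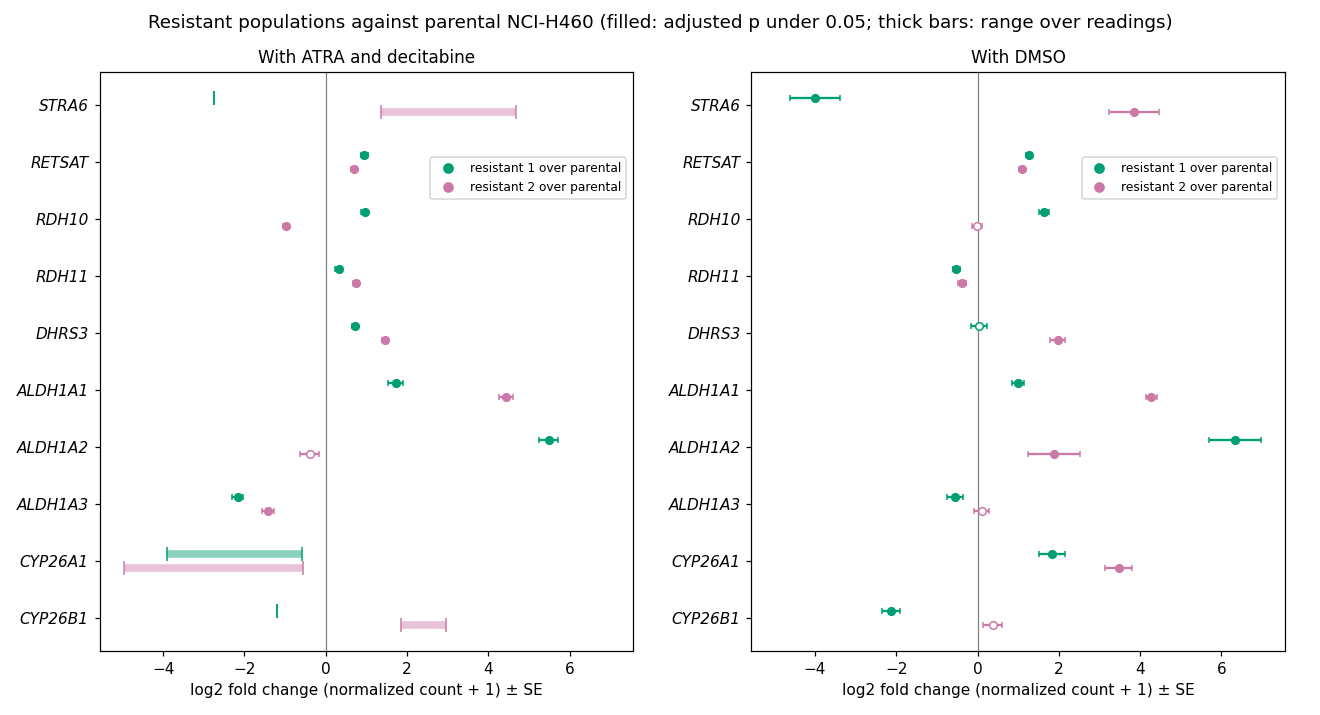
Log2 fold change of normalized count + 1 with its SE, resistant 1 (green) and resistant 2 (pink) over parental cells, with ATRA and decitabine (left) and DMSO (right). Filled points passed an adjusted p of 0.05, and thick bars or single ticks show the range over the readings of the 3 ambiguous genes. ALDH1A1 in resistant 2 lay at 4.43 with the drugs and 4.28 with DMSO, and STRA6 lay on opposite sides of 0 in the resistant populations.

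The response to the drugs was tested within each population as log2(CPM + 1) on the restored reads of 20910 genes. DHRS3 and ALDH1A3 rose in all 3 populations, and ALDH1A1 fell in resistant 2 and in parental cells. In resistant 1, 4 of the 7 restored genes rose and 1 fell, where 15.0% of all genes rose and 13.5% fell (28.5% called). In resistant 2, 2 rose and 1 fell, where 10.9% rose and 7.59% fell (18.5% called). In parental cells 5 rose and 2 fell, where 32.9% rose and 32.7% fell (65.6% called). CYP26A1, CYP26B1 and STRA6 rose in all 3 populations under every combination of readings, 36 for CYP26A1, 2 for CYP26B1 and 8 for STRA6 (limma, highest adjusted p = 0.0458, for CYP26A1 in resistant 2). Against the parental response, the response of resistant 1 differed in all 7 restored genes, 4 higher and 3 lower, where 20.6% of all genes were higher and 23.6% lower (44.2% called). The response of resistant 2 differed in 4, with 1 higher and 3 lower, where 24.5% were higher and 25.6% lower (50.1% called). The parental libraries enter both differences.

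**Figure D3:**
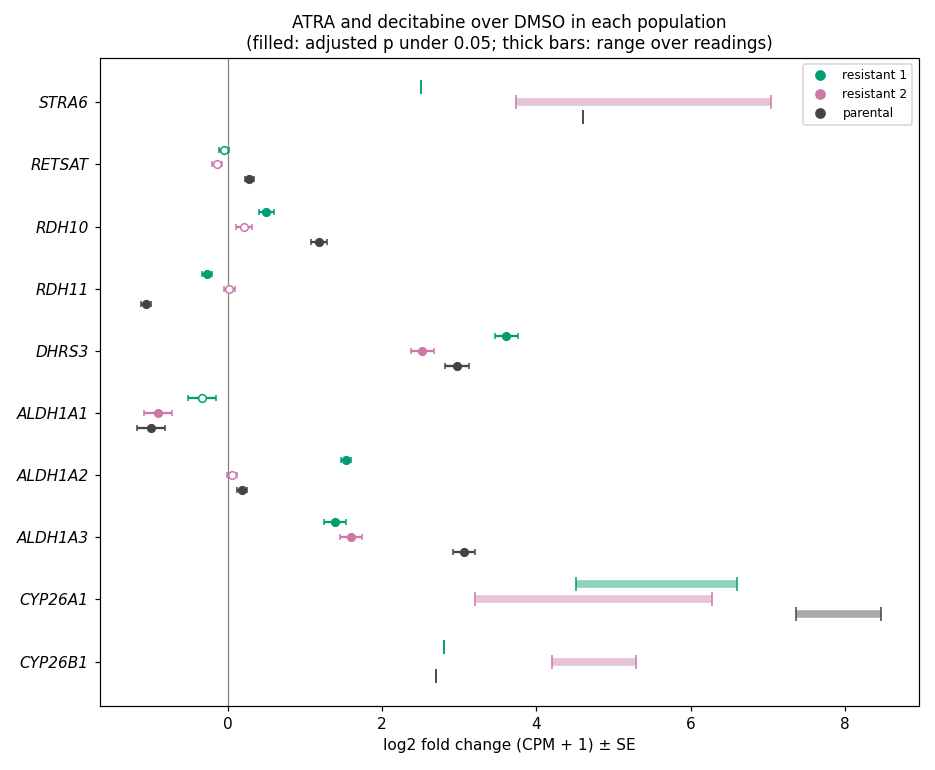
Log2 fold change of CPM + 1 with its SE, ATRA and decitabine over DMSO, in resistant 1 (green), resistant 2 (pink) and parental cells (grey). Filled points passed an adjusted p of 0.05, and thick bars or single ticks show the range over the readings of the 3 ambiguous genes. All 3 populations lay right of 0 and were called for STRA6, DHRS3, ALDH1A3, CYP26A1 and CYP26B1. RDH10 and ALDH1A2 also lay right of 0 in all 3 but were not called in resistant 2.

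STRA6, the retinol uptake receptor (ENSG00000137868, chromosome 15, 74179466 to 74212267, GRCh38), showed opposite changes in the resistant populations. With DMSO it had 3.47, 0 and 2.90 normalized counts in the libraries of resistant 1, 735, 426 and 680 in resistant 2, and 70.9, 53.6 and 17.3 in parental cells. The 3 groups did not overlap, and resistant 1 had only 7 reads in all. It fell in resistant 1 (limma, adjusted p = 0.000202) and rose in resistant 2 by 3.85 on the log2 scale (SE 0.61, adjusted p = 0.000213). In resistant 1 the log2 fold change ran from -4.83 to -2.74 over the alternatives, and it was -4.60 without parental DMSO replicate 3 and -3.32 without resistant 1 DMSO replicate 2. In resistant 2 it was 3.26 without parental DMSO replicate 3. With the drugs it had 492, 806 and 794 normalized counts in resistant 1 and 5042, 4387 and 4394 in parental cells. In resistant 2 it had 13796, 9473 and 12917, each at a posterior of 99.3%, and the other reading of each library is 10 times higher. Relative to treated parental cells it fell by 2.75 on the log2 scale in resistant 1 and rose by 1.37 to 4.69 in resistant 2 over the 8 combinations of readings (limma, highest adjusted p = 0.00648 and 0.00856). On the CPM scale it averaged 4.85 in treated resistant 1, against 0.0188 with DMSO. Resistant 2 averaged between 83.6 and 836 CPM, against 5.37 with DMSO, and in parental cells 33.2 CPM, against 0.421 with DMSO. The STRA6 response of resistant 1 differed from the parental one by -2.10 in log2(CPM + 1). This value was the same in all 8 combinations, which differ only in the readings of resistant 2. It was called in 5 of them (limma, adjusted p = 1.3e-05 to 0.0809), a count that does not weigh the combinations by posterior. The combination with every library of resistant 2 at its reading of 99.3% had a posterior of 98.8%. The ratio of treated to DMSO means ran the other way, at 258 in resistant 1, from 7 reads with DMSO, and 78.8 in parental cells. For resistant 2 the direction depended on the reading. With every library at its reading of 99.3% posterior, the difference was -0.86 (adjusted p = 0.0172). With every library at its higher reading, each of 0.69% posterior, it was 2.45 (adjusted p = 2e-06). These were the 2 of the 8 combinations called. STRA6 shares exon sequence on the other strand with CCDC33, so reads of these genes could not be kept apart with certainty.

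RETSAT, the retinol saturase (ENSG00000042445, chromosome 2, 85342088 to 85354620), was higher in both resistant populations than in parental cells with either treatment. In DMSO libraries it averaged 13958 ± 380 normalized counts in resistant 1, 12450 ± 148 in resistant 2 and 5848 ± 298 in parental cells (SD, n = 3 each). Every resistant library stood above every parental one, at 2.39-fold the parental mean in resistant 1 and 2.13-fold in resistant 2 (limma, adjusted p = 1.49e-07 and 3.08e-07). In treated libraries RETSAT averaged 17119 ± 790 in resistant 1, 14255 ± 188 in resistant 2 and 8853 ± 885 in parental cells. The differences from parental cells were again in 1 direction, 1.93-fold and 1.61-fold (adjusted p = 6.85e-07 and 7.61e-06). The drugs raised it in parental cells, to 63.7 CPM against 52.2 with DMSO (log2 fold change 0.28, SE 0.062, adjusted p = 0.000749). In resistant 1 it stood at 119 CPM with the drugs and 123 with DMSO (adjusted p = 0.596). In resistant 2 it stood at 98.6 and 109, without overlap but not called (adjusted p = 0.141). These responses were lower than the parental one by test, with differences of -0.33 (SE 0.0876, adjusted p = 0.00531) and -0.42 (SE 0.0876, adjusted p = 0.000745). RETSAT shares exon sequence on the other strand with ELMOD3.

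RDH10, the retinol dehydrogenase that makes retinaldehyde (ENSG00000121039, chromosome 8, 73294612 to 73325281), was high in resistant 1. In DMSO libraries it had 5649, 4974 and 5091 normalized counts in resistant 1, 1983, 1555 and 1516 in resistant 2, and 1703, 1494 and 1865 in parental cells. All 3 libraries of resistant 1 stood above the other 6, and resistant 2 overlapped parental cells. The mean of resistant 1 was 3.10-fold that of parental cells (log2 fold change 1.64, SE 0.129, limma, adjusted p = 1.3e-06). With the drugs the 3 populations separated, with 9983, 8757 and 9730 in resistant 1, 2301, 2449 and 2674 in resistant 2 and 4989, 4908 and 4738 in parental cells. Relative to treated parental cells the log2 fold change of RDH10 was 0.96 in resistant 1 and -0.98 in resistant 2 (SE 0.0842 each, adjusted p = 1.02e-06 and 5.46e-07). Treatment raised it in parental cells to 35.1 CPM, against 15 with DMSO, and in resistant 1 to 65.9 CPM, against 46.2 with DMSO. In resistant 2 it was 17.1 CPM with the drugs and 14.7 with DMSO, and the libraries overlapped (log2 fold change 0.21, adjusted p = 0.165). The response was lower than in parental cells, by a log2 difference of -0.67 in resistant 1 and of -0.96 in resistant 2 (SE 0.14 each, adjusted p = 0.000893 and 2.59e-05). RDH10 shares exon sequence with the antisense transcript RDH10-AS1.

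RDH11, a retinaldehyde reductase (ENSG00000072042, chromosome 14, 67676801 to 67695814), fell with the drugs mainly in parental cells. With DMSO it averaged 10635 ± 315 normalized counts in resistant 1, 11705 ± 1009 in resistant 2 and 15243 ± 1125 in parental cells (SD, n = 3 each). Both resistant populations stood below parental cells without overlap (log2 fold change -0.52, adjusted p = 0.00056, and -0.38, adjusted p = 0.00347). With the drugs the order was turned round, with 11221 ± 442 in resistant 1, 15031 ± 1555 in resistant 2 and 8986 ± 220 in parental cells. Treatment lowered RDH11 in parental cells to 62.5, 66.2 and 65.6 CPM in the libraries, against 135, 127 and 146 with DMSO (log2 fold change -1.06, SE 0.0699, limma, adjusted p = 9.53e-10). It fell by 0.27 in resistant 1 on the same scale (adjusted p = 0.0092), and in resistant 2 it averaged 104 CPM with the drugs and 102 with DMSO (adjusted p = 0.913). The responses exceeded the parental one by 0.79 and 1.08 (SE 0.0989 each, adjusted p = 6.83e-06 and 1.56e-07). RDH11 shares exon sequence on its own strand with AL049779.1, so part of its reads could belong to that gene.

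DHRS3, which reduces retinaldehyde back to retinol (ENSG00000162496, chromosome 1, 12567910 to 12617731), was high in untreated resistant 2 and rose with the drugs in every population. DHRS3 with DMSO had 1367, 1062 and 1209 normalized counts in resistant 1, 6318, 3963 and 3984 in resistant 2 and 1339, 1264 and 969 in parental cells. Resistant 1 overlapped parental cells, and all libraries of resistant 2 stood above both. The mean of resistant 2 was 3.99-fold the parental mean (log2 fold change 1.97, SE 0.193, limma, adjusted p = 5.02e-06), and the log2 fold change of resistant 1 was 0.03 (adjusted p = 0.901). In treated libraries DHRS3 had 20209, 19688 and 21334 in resistant 1, 37010, 31870 and 34011 in resistant 2 and 13649, 11588 and 12078 in parental cells. No 2 treated populations overlapped, and both resistant ones were above parental cells (log2 fold change 0.72, adjusted p = 9.74e-06, and 1.46, adjusted p = 1.52e-08). Across treatments it averaged 142 CPM in resistant 1, against 10.7 with DMSO, 237 CPM in resistant 2, against 41.5, and 89.6 CPM in parental cells, against 10.6. These are 13.2-fold, 5.72-fold and 8.43-fold rises (adjusted p = 8.03e-11, 9.66e-09 and 3.2e-11). The log2 response of resistant 1 exceeded the parental one by 0.64 (SE 0.213, adjusted p = 0.0217), a call lost on leaving out 1 of 3 libraries in turn: parental DMSO replicate 1, resistant 1 DMSO replicate 2 or treated parental replicate 2, with the adjusted p reaching 0.0588. The difference for resistant 2 was -0.45 (SE 0.213, adjusted p = 0.0891), and 7 of 30 alternatives called it, among them edgeR (adjusted p = 0.0459), DESeq2 (-0.66, adjusted p = 0.0139), quantile normalization and DESeq2 size factors (adjusted p = 0.0414 each), as well as the fits without resistant 2 DMSO replicate 2 or 3 (adjusted p = 0.0392 and 0.0482).

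ALDH1A1 (ENSG00000165092, chromosome 9, 72900662 to 73080442) was the most abundant retinaldehyde dehydrogenase in every group, and its level set resistant 2 apart. With DMSO it had 20058, 17117 and 17819 normalized counts in resistant 1, 220595, 177507 and 141885 in resistant 2 and 9681, 8298 and 9496 in parental cells. No groups overlapped. The mean was 2-fold the parental mean in resistant 1 (SE of the log2 fold change 0.143, limma, adjusted p = 0.000124) and 19.7-fold in resistant 2 (4.28 on the log2 scale, adjusted p = 1.25e-09). In treated libraries ALDH1A1 had 21373, 15519 and 18829 in resistant 1, 164768, 116032 and 90831 in resistant 2 and 6226, 5261 and 5292 in parental cells. The ratio of means to parental cells was then 3.32 and 22.1 (adjusted p = 4.42e-06 and 1.07e-09). The drugs lowered it in parental cells, to 40.3 CPM against 81.7 with DMSO, a ratio of 0.493 (SE of the log2 fold change 0.181, adjusted p = 0.000121). Resistant 2 fell to 858 ± 267 CPM, against 1570 ± 331 with DMSO (SD, n = 3 each, adjusted p = 0.00206), a call lost when resistant 2 was fitted without the other populations (adjusted p = 0.107). In the order of their replicate numbers its libraries had 1918, 1534 and 1259 CPM with DMSO and 1154, 784 and 635 with the drugs. Whether treated and DMSO libraries pair by number was not tested. In resistant 1 ALDH1A1 was 129 CPM with the drugs and 162 with DMSO, without overlap but not called (log2 fold change -0.33, adjusted p = 0.191). The response of resistant 1 was higher than the parental one by 0.67 (SE 0.256, adjusted p = 0.0435), and 14 of 30 alternatives lost this call, with adjusted p up to 0.11. For resistant 2 the difference was 0.11 (adjusted p = 0.756).

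ALDH1A2 (ENSG00000128918, chromosome 15, 57953424 to 58497866) was expressed mainly in resistant 1. ALDH1A2 with DMSO had 195, 220 and 202 normalized counts in resistant 1, 5.14, 8.53 and 13.0 in resistant 2 and 0, 0.958 and 7.58 in parental cells. Parental cells had 8 reads in all and resistant 2 had 25, so the libraries of these groups lie near the limit of detection and overlap. The log2 fold change was 6.33 in resistant 1 (SE 0.64, limma, adjusted p = 8.98e-06), but 5.66 without parental replicate 1 and 7.21 without parental replicate 3, and it ran from 4.87 to 7.27 over the pseudocounts. In resistant 2 it was 1.87 (SE 0.64, adjusted p = 0.0249), and 7 of 19 alternatives lost that call, among them the fits without 1 of 4 libraries: parental replicate 1 (1.19) or 2 (1.68), or resistant 2 replicate 2 (1.86) or 3 (1.58), with adjusted p up to 0.102. Without parental replicate 3 it was 2.74. With the drugs it had 1058, 1137 and 899 in resistant 1, 14.6, 16.1 and 18.9 in resistant 2 and 17.4, 31.8 and 19.5 in parental cells. Resistant 1 stood 5.48 above parental cells on the log2 scale (adjusted p = 2.94e-09), and resistant 2 overlapped them (log2 fold change -0.40, adjusted p = 0.136). The drugs raised it in resistant 1 to 7.16 CPM, against 1.82 with DMSO, a 3.94-fold difference (adjusted p = 8.03e-11). Parental cells had 81 reads with the drugs and 8 with DMSO, which is a small change in CPM (log2 fold change of CPM + 1 0.18, adjusted p = 0.0188). Of 30 alternatives 5 lost this call: quantile normalization (adjusted p = 0.52), a pseudocount of 5 (0.303) and the fits without parental DMSO replicate 1 (0.0636) or 2 (0.0564) or treated parental replicate 2 (0.093). On the reads the log2 fold change was 2.72 by edgeR and 2.85 by DESeq2. The response of resistant 1 was thus higher than the parental one in CPM + 1 by 1.35 (SE 0.0907, adjusted p = 5.07e-09), but in relative terms edgeR on the reads gave a difference of -0.75 (adjusted p = 0.381) and DESeq2 of -0.85. For resistant 2 the difference was -0.14 in CPM + 1 (adjusted p = 0.234), but edgeR called it on the reads, as did DESeq2, at -2.30 (adjusted p = 0.00253). ALDH1A2 shares exon sequence on the other strand with AQP9 and AC025431.1.

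ALDH1A3 (ENSG00000184254, chromosome 15, 100877714 to 100916626) was the retinaldehyde dehydrogenase that the drugs raised most in parental cells. In DMSO libraries it had 218, 219 and 246 normalized counts in resistant 1, 267, 381 and 452 in resistant 2 and 344, 334 and 321 in parental cells. Resistant 1 stood slightly below the others (log2 fold change -0.55, SE 0.189, limma, adjusted p = 0.0286 against parental cells), and leaving out 1 of 4 libraries of resistant 1 or parental cells ended the call, with adjusted p up to 0.0851. Those libraries were replicates 1 and 2 of parental cells and replicates 1 and 2 of resistant 1. Resistant 2 overlapped parental cells (log2 fold change 0.10, adjusted p = 0.657). In treated libraries ALDH1A3 had 944, 1115 and 924 in resistant 1, 1405, 1726 and 1917 in resistant 2 and 5317, 4069 and 4129 in parental cells, with no overlap. The resistant populations stood below parental cells, by log2 fold changes of -2.17 (SE 0.14, adjusted p = 7.48e-08) and -1.42 (SE 0.14, adjusted p = 1.78e-06). Treatment raised it to 6.90 CPM in resistant 1, against 2.01 with DMSO, to 11.6 CPM in resistant 2, against 3.21, and to 32.4 CPM in parental cells, against 2.97. The ratio was 3.43 in resistant 1, 3.63 in resistant 2 and 10.9 in parental cells. The difference of the responses from the parental one was -1.67 in resistant 1 and -1.47 in resistant 2 (SE 0.204 each, adjusted p = 5.17e-06 and 1.7e-05). ALDH1A3 shares exon sequence with AC015712.5 on its own strand and with AC015712.2 on the other.

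**Figure D4:**
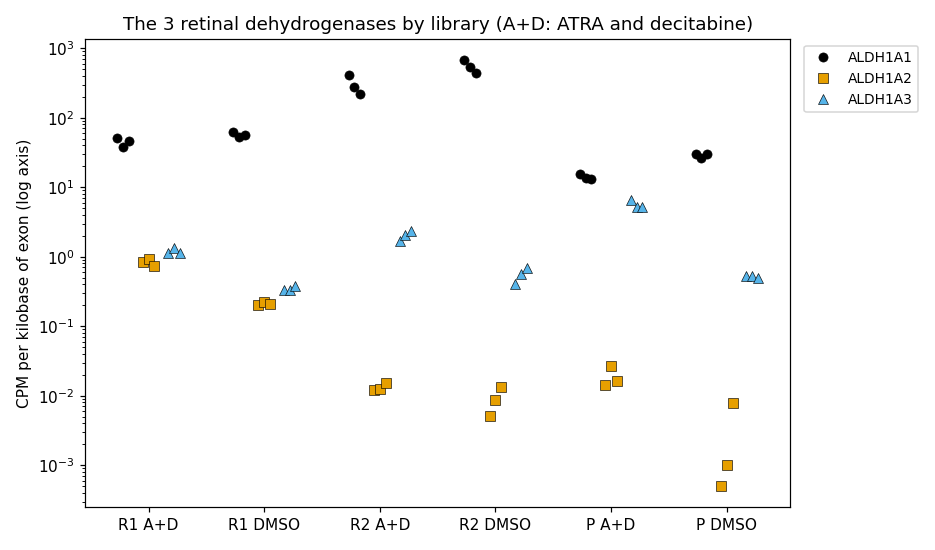
CPM per kilobase of exon (log axis) of ALDH1A1 (black circles), ALDH1A2 (orange squares) and ALDH1A3 (blue triangles) in every library, by population (R1, resistant 1; R2, resistant 2; P, parental) with ATRA and decitabine (A+D) or DMSO. The parental DMSO library without an ALDH1A2 read is drawn at the bottom, and ALDH1A1 lay above the others in all 18 libraries.

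Per kilobase of exon, the 3 dehydrogenases could be compared with each other. The length used takes in all annotated exons of a gene and not only those of the transcript expressed. The shares and ranks below depend on it. ALDH1A1 held 94.4 to 96.3% of their summed CPM per kilobase in treated resistant 1 libraries, 99 to 99.6% in treated resistant 2 and 70.3 to 72.3% in treated parental cells. With DMSO its share was 99 to 99.1% in resistant 1, 99.8 to 99.9% in resistant 2 and 98.0 to 98.3% in parental cells. The sum itself was 47.3 ± 6.78 CPM per kilobase with the drugs in resistant 1, against 57.3 ± 4.87 with DMSO, 303 ± 93.4 in resistant 2, against 552 ± 116, and 19.8 ± 2.13 in parental cells, against 29.2 ± 2.16 (SD, n = 3 each). Among all 10 genes in untreated parental cells, ALDH1A1 (28.7 ± 2.16 CPM per kilobase) and RDH11 (24.6 ± 1.73) led, followed by RETSAT (13.0 ± 0.57), DHRS3 (3.50 ± 0.571) and RDH10 (2.83 ± 0.301). CYP26B1 (0.612 ± 0.102) and ALDH1A3 (0.515 ± 0.0161) came next. The intervals of mean ± SD overlapped for CYP26B1 and ALDH1A3, and for DHRS3 and RDH10. STRA6 (0.0548 ± 0.0315), CYP26A1 (0.011 ± 0.00304) and ALDH1A2 (0.00294 ± 0.00427) came last. In untreated resistant 2 ALDH1A1 reached 551 ± 116 CPM per kilobase, and the next genes were RETSAT (27.2 ± 0.374), RDH11 (18.5 ± 1.35) and DHRS3 (13.7 ± 3.83).

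CYP26A1, the main inducible retinoic acid hydroxylase (ENSG00000095596, chromosome 10, 93073475 to 93077890), carries the DR5 printed above. With DMSO it had 13.9, 11.8 and 22.2 normalized counts in resistant 1, 54.4, 38.4 and 59.7 in resistant 2 and 2.95, 4.79 and 3.25 in parental cells, where only 11 reads were found. The 3 groups did not overlap (log2 fold change over parental cells 1.84 in resistant 1 and 3.47 in resistant 2, SE 0.324 each, limma, adjusted p = 0.000572 and 3.38e-06). With the drugs, 5 of the 9 libraries had a settled reading: 10062 and 7902 normalized counts in replicates 2 and 3 of resistant 1, 9009 in replicate 2 of resistant 2, and 53762 and 47505 in replicates 1 and 2 of parental cells. These libraries alone place the parental ones highest. Replicate 1 of resistant 1 could be 490 (posterior 20.5%), 4902 (78.5%) or 49020 (0.988%). Replicate 1 of resistant 2 could be 259 (17.4%), 2592 (60.2%) or 25919 (22.4%), and its replicate 3 could be 1777 (69.3%) or 17767 (30.7%). Replicate 3 of parental cells could be 5071 (33.5%) or 50713 (66.4%). The ranges and counts of combinations below do not weigh the readings by these posteriors. The response was a log2 rise of 4.51 to 6.60 in resistant 1, 3.20 to 6.28 in resistant 2 and 7.37 to 8.47 in parental cells, and it passed in all 36 combinations (highest adjusted p = 0.00955, 0.0458 and 3.95e-05). In CPM the treated means lay between 42.8 and 154 in resistant 1, against 0.141 with DMSO, between 25 and 122 in resistant 2, against 0.445, and between 255 and 364 in parental cells, against 0.0327. The comparison with treated parental cells was not settled: the log2 fold change was -3.90 to -0.58 in resistant 1, called in 18 of 36 combinations, and -4.97 to -0.55 in resistant 2, called in 23. The log2 response was below the parental one in all 36 combinations, by a difference of -3.96 to -0.77 in resistant 1, called in 12, and of -5.27 to -1.09 in resistant 2, called in 23.

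CYP26B1, the second hydroxylase (ENSG00000003137, chromosome 2, 72129238 to 72148038), was low in untreated resistant 1 and high in treated resistant 2. With DMSO it had 62.5, 72.8 and 100 normalized counts in resistant 1, 424, 374 and 544 in resistant 2 and 374, 380 and 278 in parental cells. Resistant 1 stood below all other libraries (log2 fold change -2.13, SE 0.224, limma, adjusted p = 1.19e-05), and resistant 2 overlapped parental cells (0.37, adjusted p = 0.17). With the drugs it had 1053, 1980 and 1753 in resistant 1 and 3001, 3642 and 4003 in parental cells. In resistant 2 it had 15755 and 47517 in replicates 1 and 3, and replicate 2 was 27216 at a posterior of 97% or 2722 at 2.96%. At the likelier reading, all 3 libraries of resistant 2 stood above all others. Resistant 2 rose over treated parental cells by 1.85 or 2.95 (adjusted p = 0.0365 and 5.14e-06), and the difference of resistant 1 was -1.19 with an adjusted p of 0.00645 or 0.164. Treatment raised CYP26B1 to 11.1 CPM in resistant 1, against 0.694 with DMSO, to between 153 and 209 CPM in resistant 2, against 3.92, and to 25.6 CPM in parental cells, against 3.07. The log2 response was 2.80 in resistant 1, 4.20 or 5.29 in resistant 2 and 2.70 in parental cells. The ratio of treated to DMSO means was 16 in resistant 1 and 8.34 in parental cells, while the difference of resistant 1 from the parental response in log2(CPM + 1) was 0.09 under both readings (lowest adjusted p = 0.883), and that of resistant 2 was 1.50 (adjusted p = 0.173) or 2.58 (adjusted p = 6.92e-05).

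A list of 24 other enzymes of retinoid metabolism was set beside these genes, of which 20 were tested with DMSO and 18 with the drugs. In untreated resistant 1, 10 of the 20 rose and 5 fell, where 29.3% of all genes rose and 26.6% fell, with a median log2 fold change of 0.51 beside 0.006 over all genes. In untreated resistant 2, 10 rose and 3 fell, where 32.1% rose and 29.8% fell, with a median of 0.85 beside 0.019. DHRS9, a retinol dehydrogenase, averaged 29.6 ± 4.17 normalized counts in resistant 1, 21 ± 7.52 in resistant 2 and 0.680 ± 0.592 in parental cells (SD, n = 3 each, limma, adjusted p = 4.34e-06 and 8.92e-06). With the drugs the direction of DHRS9 in resistant 1 was the opposite, with 22.3 ± 4.93 in resistant 1, against 73.8 ± 11 in parental cells (log2 fold change -1.70, adjusted p = 5.87e-05). BCO2, which cleaves carotenoids, averaged 506 ± 72.2 in resistant 1, 392 ± 66.6 in resistant 2 and 63.2 ± 5.84 in parental cells (adjusted p = 1.65e-07 and 3.22e-07). The retinaldehyde reductase AKR1C3, whose close copies AKR1C1 and AKR1C2 make its reads uncertain, fell in resistant 1 to 15629 ± 684, against 59134 ± 5205 in parental cells (log2 fold change -1.92, adjusted p = 1.53e-08). Resistant 2 averaged 114128 ± 6673 with DMSO, and with the drugs it stood above parental cells, at 87635 ± 5567, against 14885 ± 1214 (log2 fold change 2.56, adjusted p = 5.88e-10). With the drugs, relative to parental cells, 7 of the 18 rose and 5 fell in resistant 1, where 34.3% of all genes rose and 32.2% fell, and 9 rose and 6 fell in resistant 2, where 37.4% rose and 34.4% fell. The drugs raised 5 and lowered 6 of the 18 in resistant 1, where 15.0% of all genes rose and 13.5% fell, raised 4 and lowered 5 in resistant 2, where 10.9% rose and 7.59% fell, and raised 6 and lowered 7 in parental cells, where 32.9% rose and 32.7% fell. AKR1C3 fell in treated parental cells to 107 ± 8.54 CPM, against 527 ± 45.7 with DMSO, and the related reductase AKR1B10 to 466 ± 58.2 CPM, against 1889 ± 155 (adjusted p = 8.77e-13 and 2.05e-09). The response of AKR1C3 was higher than the parental one by 1.45 in resistant 1 and 1.57 in resistant 2 (adjusted p = 8.87e-08 and 2.72e-08). CYP2S1, a further cytochrome P450, rose with the drugs by 1.56 in resistant 1, 2.72 in resistant 2 and 3.21 in parental cells on the log2 scale (highest adjusted p = 0.000182).

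Of 12 retinoid carriers and receptors, 10 were tested. With DMSO, 1 rose and 5 fell in resistant 1 (median log2 fold change -0.40), where 29.3% of all genes rose and 26.6% fell, and 4 rose and 3 fell in resistant 2 (median 0.25), where 32.1% rose and 29.8% fell. CRABP1, a carrier of retinoic acid, had 0 reads in resistant 1, 127 ± 56.9 normalized counts in resistant 2 and 25.5 ± 7.08 in parental cells (SD, n = 3 each, limma, adjusted p = 7.96e-07 and 0.000188). Its relative FABP5 averaged 2988 ± 169 in resistant 1, 3396 ± 246 in resistant 2 and 9377 ± 190 in parental cells (adjusted p = 6.15e-08 and 1.14e-07). The drugs raised 7 of the 10 in each population, where 15.0% of all genes rose in resistant 1, 10.9% in resistant 2 and 32.9% in parental cells. They lowered 1 in resistant 1, 0 in resistant 2 and 1 in parental cells, where 13.5%, 7.59% and 32.7% of all genes fell. CRABP2, which delivers retinoic acid to its receptors, rose in parental cells to 16.4 ± 0.786 CPM, against 1.87 ± 0.149 with DMSO (log2 fold change 2.60, adjusted p = 3.75e-13). Its response was lower in resistant 1 and resistant 2 than in parental cells, by differences of -1.85 and -2.29 (adjusted p = 9.76e-09 and 5.73e-10). RARB rose with the drugs in all 3 populations, by 1.54 in resistant 1, 0.83 in resistant 2 and 1.21 in parental cells (highest adjusted p = 0.00021). The response of RARA, the alpha receptor, was higher in resistant 1 and resistant 2 than in parental cells, by differences of 0.58 (adjusted p = 0.0375) and 0.67 (adjusted p = 0.015).

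Of 18 genes that retinoic acid induces in many cell types, some of which, such as RARB and CRABP2, also stand in the list before, 12 were tested with the drugs. In resistant 1, 9 of the 12 rose and none fell, where 15.0% of all genes rose and 13.5% fell. In resistant 2, 7 rose and 2 fell, where 10.9% rose and 7.59% fell, and in parental cells 10 rose and 1 fell, where 32.9% rose and 32.7% fell. The median log2 response was 0.90 in resistant 1, 0.57 in resistant 2 and 1.18 in parental cells, beside -0.004 in resistant 1, 0.004 in resistant 2 and -0.005 in parental cells over all genes. TGM2, tissue transglutaminase, rose to 93.1 ± 18.4 CPM in resistant 1, against 5.22 ± 1.61 with DMSO, to 1188 ± 140 CPM in resistant 2, against 173 ± 38.2, and to 195 ± 6.1 CPM in parental cells, against 6.51 ± 1.72 (SD, n = 3 each, limma, highest adjusted p = 1.19e-07). Relative to the parental response, 6 of the 12 responded less and 1 more in resistant 1, where 23.6% of all genes were lower and 20.6% higher, and 7 responded less and 0 more in resistant 2, where 25.6% were lower and 24.5% higher.

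Across the 18 libraries, the protein-coding genes whose log2(CPM + 1) followed 3 of the members most closely were listed among 12303 genes with a mean of at least 1 CPM. These correlations describe libraries that share a scaling and fall into 6 groups. ALDH1A1 was followed by PLSCR4 (Pearson r = 0.993), B2M (r = 0.99) and OAZ2 (r = 0.989). PLSCR4, a phospholipid scramblase, averaged 9.09, 41.9 and 3.71 CPM in treated resistant 1, resistant 2 and parental cells, and 11.1, 59.5 and 6.70 CPM with DMSO. ALDH1A3 was followed by LSR (r = 0.983), SYTL1 (r = 0.982) and MICAL3 (r = 0.982). DHRS3 was followed by BST2 (r = 0.975), ETNK2 (r = 0.966) and IZUMO4 (r = 0.963). Among the 7 restored members themselves, the closest pair was ALDH1A2 and RDH10 (r = 0.861), both highest in resistant 1, and the next was ALDH1A3 and DHRS3 (r = 0.698).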

How the data were processed

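Stranded mRNA libraries (TruSeq) from 18 cultures were sequenced, 3 biological replicates for each of 6 groups. Per the submitters' processing notes, reads were processed with FastQC, MultiQC, STAR (GRCh38, hg38), featureCounts and DESeq2. Their versions and the strand setting are unknown here. The authors deposited 1 table per treatment, each normalized separately. The deposited DMSO table holds a signal per gene (counts divided by size factors), and 100% of its values came out as whole reads within 0.01. The deposited table of ATRA and decitabine holds another unit, since its decimal points were lost. Every value there fixes a read count up to a power of 10, and the power was restored per gene with a negative binomial model. At the filter, 20802 of 25198 genes (82.6%) reached a posterior of 99%, but only 53.6% of those with a mean under 30. Tested on the DMSO table with its points removed, 26 of 17967 resolved genes had a wrong value. That test was not independent of the answer. It used population differences of treated values that had been restored with the help of the intact DMSO values. The model took differences between populations from the other table. Restored without them, 20314 genes reached a posterior of 99%. Among genes that reached it both ways, 0 came out otherwise, and the genes resolved only with these differences could not be checked so.

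Populations were compared within a table by limma (version 3.58.1, trend, 1 fit over all 3 populations, R 4.3.3) on log2(normalized count + 1). Responses and their differences used log2(CPM + 1) of the restored reads after TMM scaling of the 18 libraries (edgeR, version 4.0.16), which understates changes of low genes. P-values were adjusted by Benjamini-Hochberg over all tested genes. They measure the spread between these cultures. Alternatives were other scalings, pseudocounts, filters and posterior thresholds, a replicate block, the compared groups alone, each library left out, and edgeR and DESeq2 (1.42.0) on reads. The fits of resistant 1 against parental cells with DMSO and of the parental response were also run on simulated counts. The outcome is not reported here, and the other comparisons were not simulated. Symbols, positions and summed exon lengths are from GENCODE 29, which named 57447 of 58051 identifiers. Promoters are from RefSeq. All 10 members are named. From each other list up to 4 called genes per comparison with a mean of at least 10 normalized counts were selected by size of change, and a choice of these is described. Some genes of the lists are not reported here by name, although the counts over the lists include them. The members, lists and rules were chosen with earlier results of these data known. The readings of ambiguous genes were added as an alternative after seeing the data.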

Additional observations from a re-analysis of the deposited data

Results flagged for a closer look

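The response to ATRA and decitabine differed between a resistant population and parental cells, by limma's test of the difference itself on log2(CPM + 1). In resistant 1 the response was higher for ALDH1A1 (0.67), ALDH1A2 (1.35), DHRS3 (0.64) and RDH11 (0.79), and lower for ALDH1A3 (-1.67), RDH10 (-0.67) and RETSAT (-0.33). In resistant 2 it was higher for RDH11 (1.08) and lower for ALDH1A3 (-1.47), RDH10 (-0.96) and RETSAT (-0.42). ALDH1A3, RDH10, RDH11 and RETSAT were called in both, with the same sign, and both differences use the same parental libraries. Of all tested genes, 44.2% and 50.1% were called in these comparisons. The value for ALDH1A2 turned sign on the scale of relative counts. In resistant 1 the call of ALDH1A1 was lost in 14 of 30 alternatives, and that of DHRS3 in 3 of 30. Groups of 3 libraries are too small for a test of single outlying libraries.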

How the results depend on the processing

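Of 86 tested values of single members, 70 were called, and 62 of these kept their call and sign under every alternative. Of 2058 alternative values, 1989 kept sign and side of the threshold. The count of members called stayed within 1.5 times its main value, with the exception of the response of resistant 2 at a posterior threshold of 0.9, where 5 of 9 members were called in place of 3 of 7, since CYP26B1 and STRA6 then entered. Among these 70 called values, the sign turned only for ALDH1A2 in the response of resistant 1 minus parental, at -0.75 by edgeR and -0.85 by DESeq2, which work on relative counts. Values that were not called turned sign as follows. For DHRS3 in resistant 1 against parental cells with DMSO, quantile normalization gave -0.10 and single libraries left out -0.11 to 0.12. For ALDH1A3 in resistant 2 with DMSO these were -0.15 and -0.06 to 0.32. For RDH10 in resistant 2 with DMSO, TMM rescaling gave 0.0051, edgeR 0.01, DESeq2 2.4e-05 and libraries left out -0.13 to 0.07. For ALDH1A2 in treated resistant 2 against parental cells quantile normalization gave 0.31, and for the response of RETSAT in resistant 1 it gave 0.06. For the response of RDH11 in resistant 2, DESeq2 size factors gave -0.0043, the posterior threshold of 0.9 -0.01, DESeq2 -0.0035 and libraries left out -0.04 to 0.07. For ALDH1A1 in the response of resistant 2 minus parental, libraries left out gave -0.13 to 0.30. Over the readings of ambiguous genes, called values turned as well. CYP26A1 in treated resistant 1 against resistant 2 was 3.29 at the highest reading (adjusted p = 0.0305) and -2.24 at the lowest (adjusted p = 0.0915). The highest takes a reading of replicate 1 of resistant 1 with a posterior of only 0.988%. STRA6 in the response of resistant 2 minus parental was 2.45 at the highest (adjusted p = 2e-06) and -0.86 at the lowest (adjusted p = 0.0172). The lowest takes the readings of 99.3% posterior, and the highest takes those of 0.69%.

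Quantile normalization moved the median of all genes to -0.121 in resistant 1 and -0.108 in resistant 2 with DMSO. Fitted alone, resistant 2 gave 1695 called responses in place of 3872. Whether the replicate numbers pair libraries was looked at only within a treatment, where same-numbered libraries correlated at -0.28 to 0.376. Between the resistant populations these correlations were all positive (0.0785 to 0.376), and those of libraries with different numbers ran from -0.316 to 0.19. A pairing of treated with DMSO libraries was not tested. With the replicate block, the response of DHRS3 in resistant 2 minus parental passed the threshold at -0.45 (adjusted p = 0.0357), and no other call of a member changed. Low genes limit the treated comparisons, since the restoration settles fewer of them.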
